A study of Gallus gallus with 28 samples.

Results

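The offspring of heat-conditioned chickens were examined for the response of the brain to lipopolysaccharide (LPS), by comparing the 3 RNA libraries taken 6 h after LPS with the 3 RNA libraries of unchallenged chicks, the t0 group. These 6 libraries were chosen by their labelled parental group and challenge, out of 28 samples in the series, 18 of them RNA libraries. Each library is a lysate of whole anterior preoptic hypothalamus from Gallus gallus chicks on day 10 after hatching. Both groups had conditioned parents ("Cond parents" in the labels), and the chicks themselves were nonconditioned. The labels of the methylation samples of the same series, which are not analysed here, name the strain as Cobb, a broiler. Those labels describe the conditioning of the eggs that gave the parental generation as 39.5 °C during 12 h of each day, from embryonic day 7 to embryonic day 16, with control eggs at 37.8 °C. In the LPS group, LPS was injected into the third ventricle, the fluid-filled space beside this tissue, and the chicks were killed 6 h into the challenge. The t0 group received no injection. The dose of LPS, the sex of the chicks and whether a library holds 1 animal or several are stated in no label.

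The other RNA libraries served only as references and in the shared fit. They were 3 at t0 and 3 at 6 h after LPS from non-conditioned parents, and 3 per parental group after 6 h of heat. In the heat groups, chicks were moved from 30 °C to 36 °C. The labels give a room temperature of 30 °C for the t0 and LPS groups too. Heat libraries from non-conditioned parents entered the shared fit, the principal components and the displays of all 18 RNA libraries. No group was injected without LPS, and none was kept for 6 h without a challenge. LPS therefore cannot be told apart from the injection, the handling and the elapsed time. Nothing in the labels says that the libraries of a group came from separate animals, so the edgeR p-values measure spread between libraries. That spread was estimated from all 18 RNA libraries together, not from the compared libraries alone.

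LPS is a component of the outer wall of Gram-negative bacteria. In vertebrates it is sensed mainly through Toll-like receptor TLR4 with its partners MD-2 and CD14, which leads through NF-κB to the transcription of cytokines, chemokines and acute-phase genes. In the brain, microglia, endothelium and cells lining the ventricles are among the responding cells, and the preoptic hypothalamus is the region where prostaglandin E2 raises the set point of body temperature in fever. None of these genes could be looked up here. The deposited table carries Ensembl identifiers alone, and 0 of its 11207 identifiers could be paired with a name, so genes are given by identifier, with no function, position or sequence. The tissue label could not be checked against marker genes, nor could the cell types in the lysates be assessed. In a bulk lysate, fewer cells of a type and less RNA per cell cannot be told apart.

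The 3 t0 libraries held 828424 to 1422688 counts, and the 3 LPS libraries held 1166296 to 2651603. Across the 18 RNA libraries the totals ran from 828424 to 4589179, so the t0 group includes the shallowest library of all. On the second principal component of log2 CPM (counts scaled to a common library size with TMM factors), which held 17.1% of the variance, all 6 LPS libraries of both lineages lay at -17 or below and the 12 others at -6.88 or above. The first component held 20.5% and set 2 libraries of the t0 group apart. Library 2 lay at -32.6 on it and library 3 at -61.4, while every other library of the 18 lay at -18.8 or above. The median SD of log2 CPM over genes was 0.355 in the t0 group, the highest of the 6 groups, against 0.286 in the LPS group. Several counts and folds that rest on the t0 group are therefore also given without t0 libraries 2 and 3. This setting leaves 1 t0 library, whose spread is assumed to be that of the other groups. Library 1 is not shown to be the better reference. The quality weights that voom fitted were 0.53, 2.37 and 0.73 for t0 libraries 1, 2 and 3. The first was the lowest and the second the highest of the 18 RNA libraries. Lineage differences of single genes, classes by t0 level and shares of genes without overlap are given with all 3 t0 libraries only.

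After LPS, 93 genes were raised and 8 were lowered relative to t0, of 7921 genes tested with edgeR at an adjusted p under 0.05. The raised genes were 1.17% of those tested and the lowered genes 0.101%. Among the raised genes, 83 changed by more than 2-fold, 46 by more than 4-fold and 12 by more than 16-fold. Among the lowered genes, 6 changed by more than 2-fold and 1 by more than 4-fold. The fitted log2 fold change had a median of 1.99 over the raised genes, -1.2 over the lowered genes and 0.022 over all genes tested. At an unadjusted p under 0.05, 553 genes were higher and 387 lower.

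**Figure D1:**
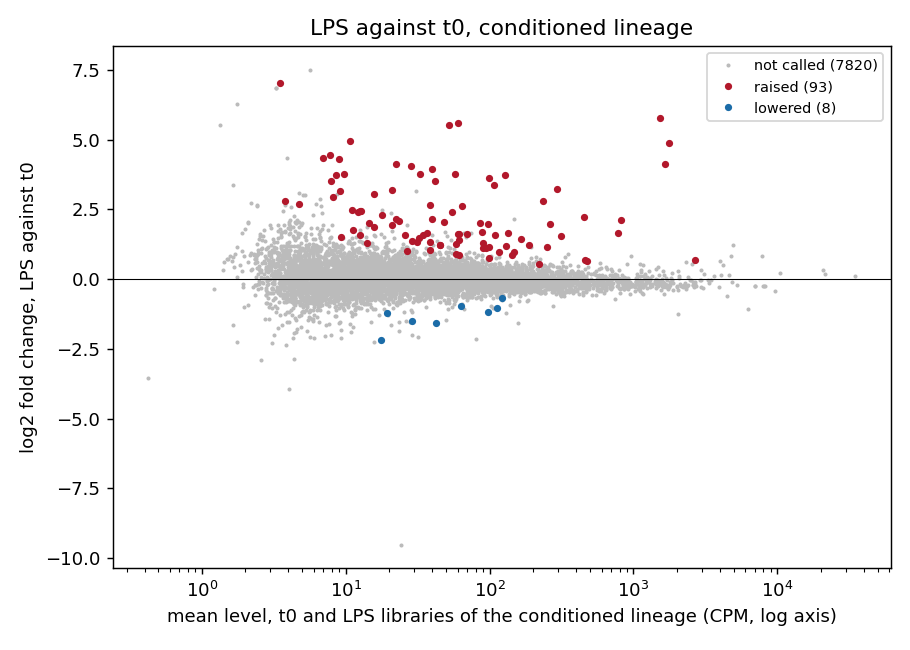
Log2 fold change of LPS against t0 in the conditioned lineage (vertical axis) against the mean level over the 6 libraries in CPM (horizontal log axis), 1 point per gene tested. The 93 raised genes (red) reach log2 fold changes above 5 across a wide range of levels, while the 8 lowered genes (blue) lie between -0.67 and -2.2, and the spread of the genes not called (grey) narrows with the level.

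Most raised genes, like most genes tested, lay under 100 CPM before the challenge. The median level of the raised genes was 17.4 CPM at t0 and 76.7 CPM after LPS, against 29.2 and 30.6 CPM for all genes tested. Some raised genes passed the filter on low counts only through other groups, so this contrast is a description. Of the 1983 genes between 1 and 10 CPM at t0, 30 were raised, with a median log2 fold change of 2.81. Genes in the lower part of this class needed libraries of other groups, the LPS group among them, to pass the filter on low counts. The values of this class are therefore a description and not a rate. Between 10 and 100 CPM, 43 of 4199 genes were raised, with a median log2 fold change of 1.57. At 100 CPM or more, 14 of 1713 were raised, with a median of 1.38 and a range of 0.55 to 4.87. All 8 lowered genes lay above 10 CPM at t0, 5 of them below 100 CPM and 3 at or above it. The median SE of the log2 fold change was 0.546 between 1 and 10 CPM, 0.273 between 10 and 100 CPM and 0.158 above that.

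Some raised genes were close to undetected at t0. Of the 93, 1 had 0 counts over the 3 t0 libraries, 5 had 1 to 3 counts and 9 had 4 to 10 counts. The gene at 0 carries the highest fitted log2 fold change, 7.05, a value that depends on the prior count and is no measured fold. The 26 genes tested that lay under 1 CPM at t0 passed the filter on low counts only through another group. Of them 6 were raised, which is a description and not a rate.

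The largest rise under the rule for named genes (adjusted p under 0.05, a mean of at least 10 CPM and no overlap between the groups) was that of ENSGALG00000027716.2. Its level was 37.2, 68.7 and 57.4 CPM in t0 libraries 1, 2 and 3, and 5166, 2159 and 1637 CPM in LPS libraries 1, 2 and 3. Every LPS library lay far above every t0 library, and LPS library 1 stood above the other two. The log2 fold change was 5.79 ± 0.40 (SE, n = 3 libraries a group), a 55.5-fold rise with an edgeR adjusted p of 5.63e-08. By mean level the gene moved from rank 2747 of the genes tested at t0 to rank 33 after LPS. Without t0 libraries 2 and 3 its log2 fold change was 6.33.

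The next was ENSGALG00000034478.1, a gene near the detection limit at t0, which met the minimum of 10 CPM for named genes only through the libraries in which it was high, so that its place in the order is a description. Its counts at t0 were 1, 6 and 1, which correspond to 0.716, 5.22 and 1.27 CPM. In the LPS libraries its counts were 383, 168 and 91, or 143, 151 and 60.3 CPM. The groups did not overlap, and t0 library 2 held most of the counts at t0. The log2 fold change was 5.58 ± 0.51 (SE, n = 3 libraries a group), with an edgeR adjusted p of 1.31e-06. It was 6.92 without t0 library 2 and 7.26 with library 3 left out as well, so the size of this rise rests on 8 counts at t0. The SE was derived from the test statistic and is approximate for so large a change.

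A few genes carried much of the gain in transcripts. Summed over the 93 raised genes, the mean level rose by 19235 CPM, and 3 genes made up 47.7% of this gain. One of them is ENSGALG00000027716.2, and the other 2 were singled out after their values were seen. ENSGALG00000023622.3 stood at 140, 123 and 79 CPM in the t0 libraries and at 2793, 3949 and 3430 CPM in the LPS libraries. ENSGALG00000043064.1 stood at 155, 210 and 175 CPM at t0 and at 4392, 2932 and 2090 CPM after LPS. Neither gene had overlapping groups. Their log2 fold changes were 4.87 ± 0.43 and 4.13 ± 0.33 (SE, n = 3 libraries a group), with edgeR adjusted p of 7.83e-07 and 3.76e-07. They were 4.6 and 4.34 without t0 libraries 2 and 3. Together the 3 genes held 0.0326%, 0.0396% and 0.0295% of the counts of the t0 libraries, and 1.24%, 0.865% and 0.681% of those of the LPS libraries. The loss over the 8 lowered genes summed to 360 CPM.

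**Figure D2:**
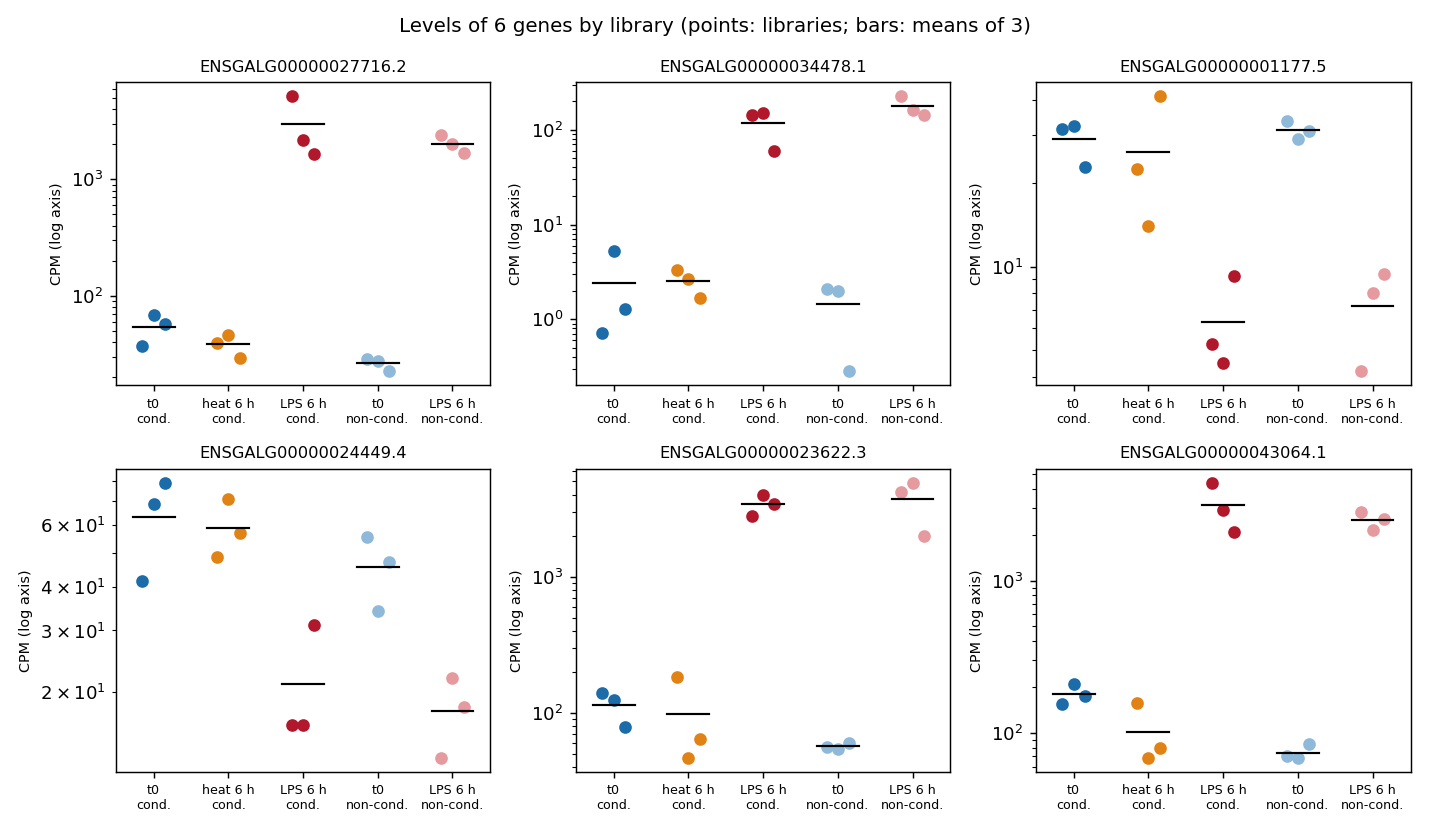
Levels of 6 genes in CPM (log axis) in each library of 5 groups, with points for libraries and bars for means of 3. The 4 raised genes lie far above t0 in all LPS libraries of both lineages, and all heat libraries lie far below these LPS levels. ENSGALG00000001177.5 and ENSGALG00000024449.4 lie below t0 in all LPS libraries.

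The largest fall was that of ENSGALG00000001177.5. It stood at 31.5, 32.2 and 22.9 CPM at t0 and at 5.24, 4.48 and 9.27 CPM after LPS, so that the lowest t0 library was above the highest LPS library. Its LPS values rest on 14, 5 and 14 counts. The gene met the minimum of 10 CPM only through the t0 libraries, so its place in the order is a description. Its log2 fold change was -2.20 ± 0.40 (SE, n = 3 libraries a group), with an edgeR adjusted p of 0.00494. Thinning all libraries to the shallowest moved the log2 fold change to -3.43. It was -2.31 without t0 libraries 2 and 3, and the call was lost (edgeR adjusted p = 0.0679). The gene lay between 14 and 41.3 CPM in the heat libraries of the same lineage.

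The second fall was that of ENSGALG00000024449.4, from 41.5, 68.7 and 79 CPM at t0 to 16.1, 16.1 and 31.1 CPM after LPS. The groups did not overlap, but t0 library 1 was only moderately above LPS library 3. The log2 fold change was -1.57 ± 0.30 (SE, n = 3 libraries a group), with an edgeR adjusted p of 0.00645. This call was lost in a fit of the compared groups alone, where the fall was -1.57 (edgeR adjusted p = 0.0581). It was also lost after thinning all libraries to the shallowest, at -1.48 (edgeR adjusted p = 0.153), and without LPS library 1, at -1.36 (edgeR adjusted p = 0.0529). Without t0 libraries 2 and 3 the fall was smaller, at -0.99 (edgeR adjusted p = 0.539).

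The other lowered genes showed smaller falls. Over the 8, log2 fold changes ran from -0.67 to -2.2 with SE between 0.14 and 0.4, and edgeR adjusted p ran from 0.00235 to 0.03. In all 8 every LPS library lay below every t0 library, a pattern met by 6.2% of all genes tested. The 8 were called on these same libraries, which favours this pattern, so the contrast is a description. The lowest t0 library exceeded the highest LPS library by 1.31 to 2.47 times, and by at least 1.5 times in 5 of the 8.

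Among raised genes the gaps between groups reached further. In 91 of the 93 every LPS library lay above every t0 library, which held for 7.89% of all genes tested. Here too the call on these same libraries favours the pattern. In 52 of the 93 the lowest LPS library was at least 2 times the highest t0 library, and in 21 at least 4 times. Within the LPS group, the highest library was less than 2 times the lowest in 76.3% of the raised genes, against 75.9% of the 7852 genes tested that were counted in all 3 LPS libraries. The median ratio was 1.65 over the raised genes and 1.48 over all of these.

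How many genes were called depended on which libraries were kept. Without LPS library 1, 2 or 3 the raised genes numbered 79, 65 and 69, of which 70, 60 and 66 were among the 93. Without t0 library 1, 2 or 3 the raised genes numbered 102, 57 and 61, of which 65, 56 and 59 were among the 93. Without libraries 2 and 3 together, 37 genes were raised, 36 of them among the 93, and 1 was lowered. Over the fits with t0 libraries left out, the median log2 fold change of the 93 ran from 1.9 to 2.01 and that of the 8 from -0.98 to -1.26. Their signs could hardly turn, because the groups of nearly all of them do not overlap. Against the 3 t0 libraries of the non-conditioned lineage, which are deeper, 146 genes were raised (1.84% of those tested) and 17 lowered (0.215%), among them 79 of the 93 and 4 of the 8. That comparison shares its LPS libraries with the main one and also crosses lineages, so no agreement is read from these counts. One of the 93 turned its sign there, ENSGALG00000033591.2, with a log2 fold change of -0.09; it is named after its values were seen.

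**Figure D3:**
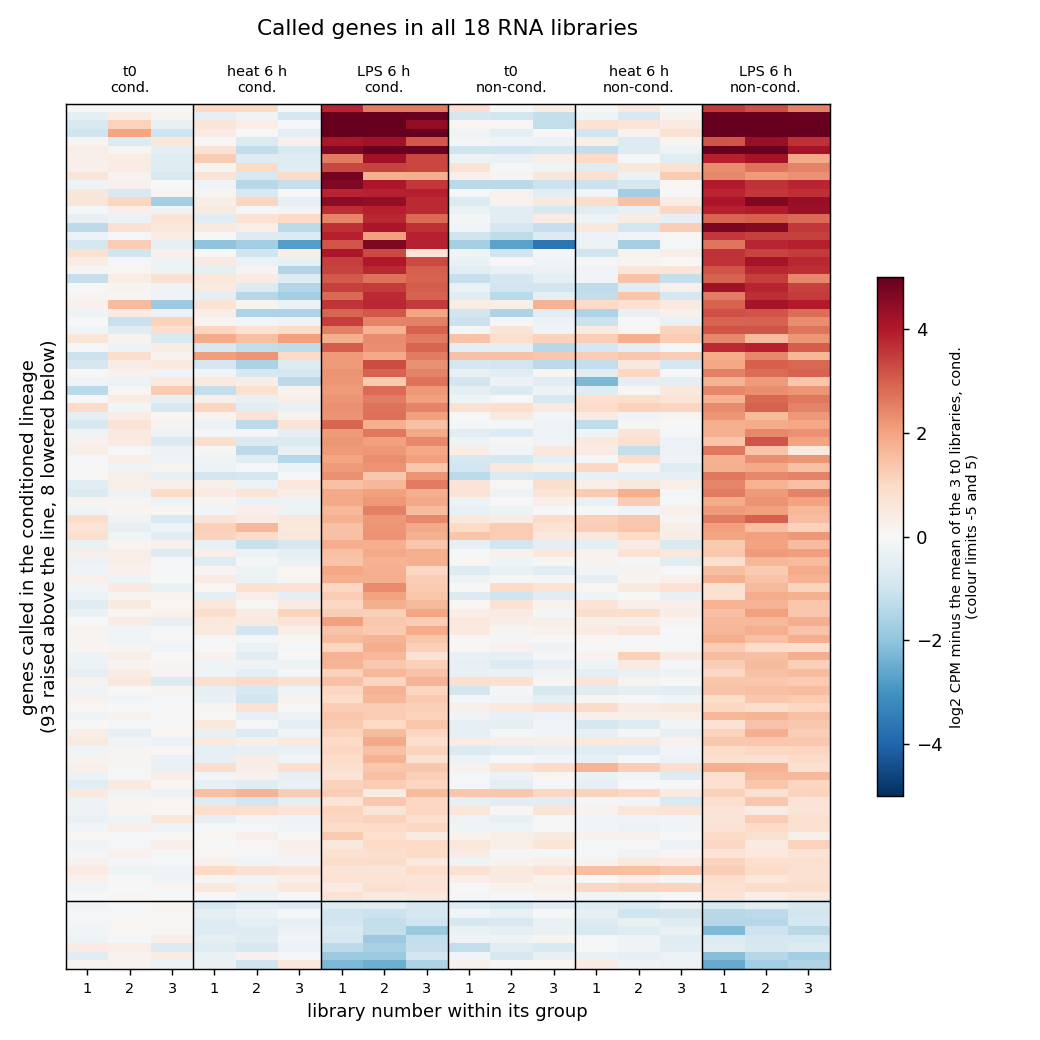
Log2 CPM minus the mean of the 3 t0 libraries of the conditioned lineage, for the 93 raised and 8 lowered genes (rows, ordered by log2 fold change) in all 18 RNA libraries (columns, grouped by challenge and lineage). The LPS libraries of both lineages are red over most raised genes, with fainter and mixed colours in the heat libraries and the t0 libraries of the non-conditioned lineage.

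The non-conditioned lineage gave a second set of 6 libraries, none shared with the comparison above. There LPS raised 175 genes (2.21% of those tested) and lowered 27 (0.341%). The lists held 75 raised genes in common, 80.6% of the conditioned list and 42.9% of the non-conditioned list. They also held 4 lowered genes in common, 50% and 14.8% of the lists. The raised genes in common were 36 when t0 libraries 2 and 3 of the conditioned chicks were left out. A gene missing from 1 list is not shown to differ, and the test of the difference follows below.

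The list of the non-conditioned lineage was also followed in the conditioned libraries, beyond the genes called there. Its calls used a spread estimated from all 18 RNA libraries, the conditioned ones among them. Some of its genes passed the filter on low counts only through LPS libraries. The shares below are therefore a description beside those of all genes. Of the 175 genes raised in the non-conditioned lineage, 170 had a positive log2 fold change in the conditioned lineage (97.1%, against 53% of all genes tested). Of these 175, 139 had every LPS library above every t0 library (79.4%, against 7.89%). At an unadjusted p under 0.05, 138 were higher, against 6.98% of all genes. The median log2 fold change of these 175 genes was 1.3 in the conditioned lineage and 1.72 in the lineage in which they were chosen. Of the 27 lowered genes, 25 had a negative log2 fold change in the conditioned lineage (92.6%, against 47% of all genes). The median of the 27 was -0.47 there, against -1 where they were chosen. In 12 of the 27 every LPS library lay below every t0 library (44.4%, against 6.2% of all genes). Without t0 libraries 2 and 3 the raised list had 169 positive genes and a median of 1.42, where 51.6% of all genes were positive. In that fit the lowered list had 21 negative genes and a median of -0.31.

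These 175 genes held 1.79%, 1.95% and 1.84% of the counts of t0 libraries 1, 2 and 3 of the conditioned lineage and 4.2%, 4.12% and 3.49% of those of LPS libraries 1, 2 and 3. All LPS libraries lay well above all t0 libraries. The means were 1.86% ± 0.0818 and 3.93% ± 0.389 (SD, n = 3 each), a difference of 2.08 percentage points, with a 2-sided exact permutation p of 0.1, the smallest that 3 libraries against 3 can give. The 3 heat libraries of the same lineage stayed at 1.63% to 1.77%. Gene by gene, the median of log2 CPM relative to the t0 mean was 1.27, 1.35 and 1.22 in LPS libraries 1, 2 and 3, so no single LPS library carried the rise. Much of the rise in share came from few genes. The 3 genes described above for the largest gain in CPM are among the 175. They alone held 1.24%, 0.865% and 0.681% of the counts of LPS libraries 1, 2 and 3, and 0.0295% to 0.0396% at t0.

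**Figure D4:**
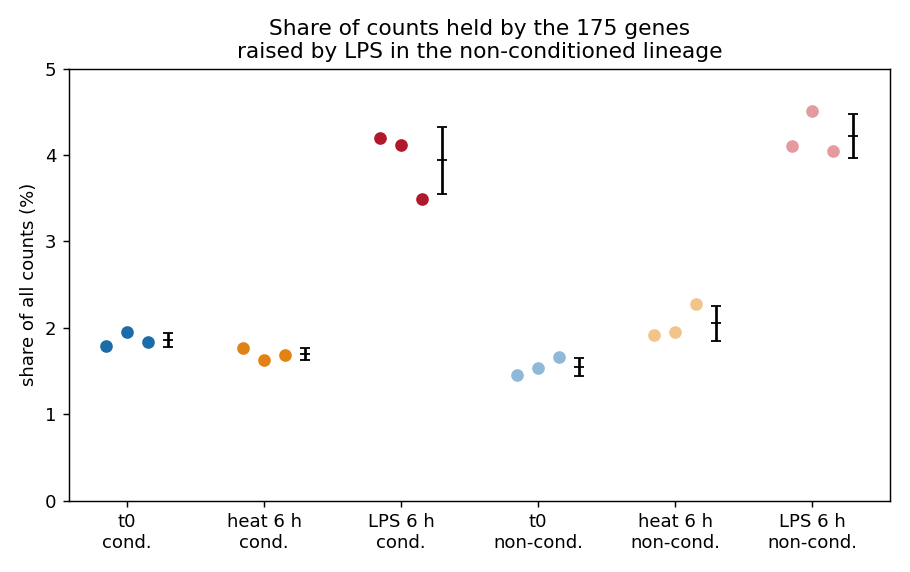
Share of all counts, in %, held by the 175 genes that LPS raised in the non-conditioned lineage, in each RNA library (points) with mean and SD of 3 libraries (bars). In the conditioned lineage the LPS libraries lie between 3.49% and 4.2% and the t0 and heat libraries between 1.63% and 1.95%; in the non-conditioned lineage the genes were chosen by these same libraries.

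The size of the response was compared between lineages gene by gene. The difference of the 2 responses passed the edgeR threshold in 0 genes (0% of those tested). At an unadjusted p under 0.05 there were 483 genes, 254 with the higher value in the conditioned lineage and 229 with the lower, and the smallest adjusted p was 0.445. DESeq2 and voom also called 0, as did edgeR without t0 libraries 2 and 3, with 387 genes at an unadjusted p under 0.05. The median SE of this difference was 0.386 on the log2 scale, and a lack of calls at this precision does not show equal responses.

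The 4 raised genes described above showed this limit. The response of ENSGALG00000027716.2 was 5.79 in the conditioned lineage and 6.25 ± 0.39 (SE) in the other, a difference of -0.46 with a 95% interval of -1.47 to 0.55. For ENSGALG00000034478.1 the difference was -1.22, with an interval of -3.1 to 0.67. For ENSGALG00000023622.3 it was -1.15 (-2.25 to -0.04) and for ENSGALG00000043064.1 it was -0.95 (-1.84 to -0.07). The last 2 intervals exclude 0 before adjustment only, with edgeR adjusted p of 0.806 for both.

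For these last 2 genes the t0 levels differed more between lineages than the LPS levels did. In the non-conditioned lineage ENSGALG00000023622.3 stood at 55.7, 54.4 and 60.2 CPM at t0, below all t0 libraries of the conditioned lineage, and at 4178, 4882 and 2000 CPM after LPS, a range that holds all 3 conditioned values. ENSGALG00000043064.1 stood at 69.9, 68.7 and 83.9 CPM at t0, again below all conditioned t0 libraries, and at 2827, 2167 and 2524 CPM after LPS. The t0 difference, conditioned minus non-conditioned, was 1.02 ± 0.39 and 1.28 ± 0.31 (SE) on the log2 scale, with edgeR adjusted p of 0.215 and 0.0956. After LPS the same difference was -0.12 ± 0.35 and 0.33 ± 0.29. Depth differed along with lineage at t0, with 3379626 to 4589179 counts per library in the non-conditioned group, and its part in these values was not tested.

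Both named falls were also seen in the other lineage, with wide intervals of the difference. ENSGALG00000001177.5 had a log2 fold change of -2.11 ± 0.36 (SE) in the non-conditioned lineage, a difference of -0.09 with an interval of -1.23 to 1.06. ENSGALG00000024449.4 had -1.36 ± 0.28 there, a difference of -0.21 with an interval of -1.06 to 0.65.

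**Figure D5:**
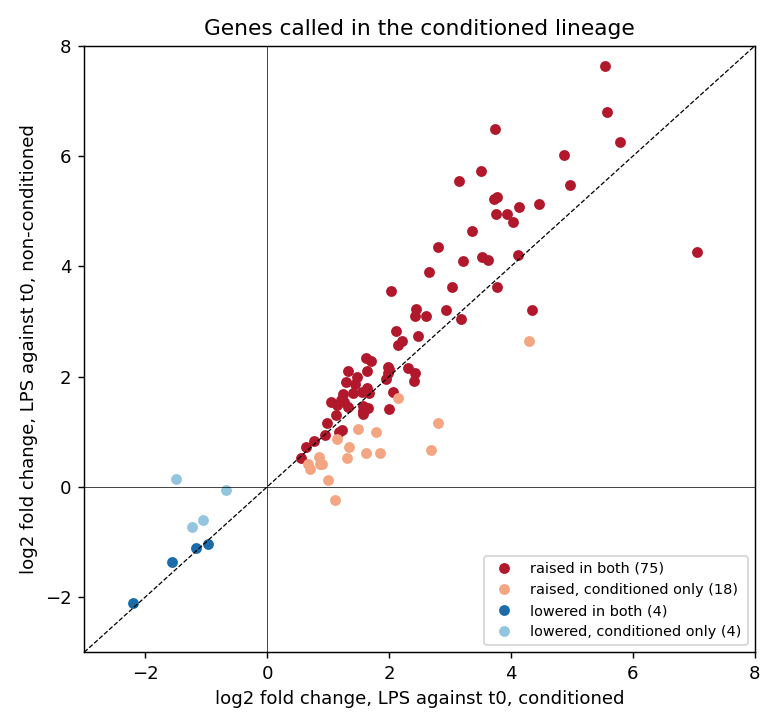
Log2 fold change of LPS against t0 in the conditioned lineage (horizontal axis) and the non-conditioned lineage (vertical axis) for the 93 raised and 8 lowered genes of the conditioned lineage; the dashed line marks equal values. Of the 75 genes raised in both lineages, 57 lie on the side of the larger rise in the non-conditioned lineage, and the 18 raised in the conditioned list alone lie below it, as their choice by the horizontal axis favours.

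The 93 raised genes were also followed from the conditioned list. In the non-conditioned lineage 92 of them had a positive log2 fold change, against 50.5% of all genes tested, and the median of the 93 was 1.99 in both lineages. The 75 raised in both had medians of 2.11 in the conditioned and 2.29 in the non-conditioned lineage. In 57 of these 75 the rise was smaller in the conditioned lineage, with a median difference of -0.42. Among all 7921 genes, 3796 had the lower value in the conditioned lineage. Without t0 libraries 2 and 3 the rise was smaller in 46 of the 75. The 18 called in the conditioned lineage alone had a median of 1.33 there and 0.61 in the other, with 17 of the 18 positive in the other. At an unadjusted p under 0.05 the difference between lineages was reached by 12 of the 93, 8 of them with the smaller rise in the conditioned lineage, against 483 of all 7921 genes.

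The 18 genes were chosen for passing over the conditioned t0 libraries and not in the other lineage, which favours low values in those t0 libraries, so their levels are a description. Their median level was 17 CPM in the t0 libraries of the conditioned lineage, 29.3 CPM in its heat libraries and 39.3 CPM after LPS, and in the non-conditioned lineage it was 24.5 CPM at t0 and 34.9 CPM after LPS. The 75 shared genes had medians of 17.4, 14.9 and 82.8 CPM in the 3 groups of the conditioned lineage. The median t0 difference, conditioned minus non-conditioned, was -0.54 on the log2 scale over the 18 genes and 0.3 over the 75.

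The heat libraries of the conditioned lineage gave a reference that had also passed 6 h under a challenge, though without an injection. LPS against heat raised 116 genes (1.46% of those tested) and lowered 7 (0.0884%), by the edgeR test. Because this comparison shares the LPS libraries with that against t0, its values are set beside the others and no agreement is read from them. Of the 93 genes raised over t0, 75 were also raised over heat, 70 of the 75 shared with the other lineage and 5 of the 18 that were not. The median log2 fold change of the 93 was 1.84 against heat. Of the 8 lowered genes, 2 were also lowered against heat.

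Heat itself, against the same t0 libraries, had 1034 of 7921 genes at an unadjusted edgeR p under 0.05, where LPS had 940. By the edgeR test with adjusted p, heat raised and lowered 0 genes, which does not show that it changed none. The same count was 0 without t0 libraries 2 and 3, with 344 at an unadjusted p under 0.05. ENSGALG00000027716.2 stood at 39.8, 46.4 and 29.1 CPM in the heat libraries, within or below its t0 range, and its log2 fold change of LPS against heat was 6.3 ± 0.4 (SE, n = 3 libraries a group, edgeR adjusted p = 1.51e-08). ENSGALG00000023622.3 was at 183, 46.4 and 64.5 CPM and ENSGALG00000043064.1 at 157, 68.3 and 78.9 CPM. In both, heat library 1 lay within or above the t0 range and the other two lay below it. ENSGALG00000024449.4 was at 48.5, 70.9 and 56.9 CPM, above all its LPS values, with a log2 fold change of -1.47 ± 0.29 against heat (edgeR adjusted p = 0.00629).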

How the data were processed

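Per the submitters' processing notes, cutadapt, STAR, HTSeq and DESeq2 were used with the galGal5 build; for versions, settings, molecular identifiers and strand the entry is "not given in the sources used here". Per the labels' protocols, 15 ng of RNA entered bulk MARS-seq, which reads 3′ ends, with single reads of 100 bases. The deposited table holds raw counts per gene and, per the file headers, the authors' normalized signal, which was each raw column divided by 1 constant to within 0.00968 and served only as an alternative scaling. With no gene models, paralogs and overlapping or antisense genes could not be judged.

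From the raw counts, genes were filtered by edgeR's filterByExpr by group (7921 of 11207 kept, with 99.5% of the counts), scaled by TMM and tested with edgeR 4.0.16 in R 4.3.3 (quasi-likelihood F test, 1 group-means model over the 18 RNA libraries), with Benjamini-Hochberg adjustment over all genes tested and a threshold of 0.05. The SE of a log2 fold change was obtained by dividing it by √F. CPM values use TMM factors, and principal components used log2 CPM with a prior count of 2. Raised and lowered mean past this threshold. The share of counts was compared by an exact permutation test. DESeq2 1.42.0, voom from limma 3.58.1, other scalings and filters, left-out libraries, thinned counts, other t0 libraries and a replicate block were tried.

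Library numbers are those of the titles. By title number, t0 and LPS libraries of the same number did not deviate together (r of 0.09, 0.03 and -0.06 for libraries 1, 2 and 3). By description number, r was -0.21 for t0 library 1 with LPS library 2. It was -0.08 for t0 library 2 with LPS library 3. No label says that either number marks a pair, so the libraries were not treated as pairs. Replicate libraries differed from one another by more than sampling noise, and none was a duplicate. Identifiers were compared with a table of 25635 genes, with 0 matches. The lists of gene symbols and of cell type markers drawn up for this work could therefore not be applied, and a reduced rule named the 2 raised and 2 lowered genes of the largest log2 fold change with an adjusted p under 0.05, a mean of at least 10 CPM over the 6 libraries and no overlap of the groups. The libraries, lists and rules were chosen with earlier results of these data known.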

Additional observations from a re-analysis of the deposited data

How the results depend on the processing

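The direction of the 6 named genes held under every alternative run, while ENSGALG00000024449.4 lost its call under 4 of 21 and ENSGALG00000001177.5 under 1, without t0 libraries 2 and 3; the other 4 kept theirs. The direction of these 6 genes could hardly turn in runs on the same libraries, because their t0 and LPS groups do not overlap. The count of raised genes (93) moved to 61 with the compared groups alone, 39 with libraries thinned to the shallowest, 146 against the non-conditioned t0 libraries, 161 against both t0 groups, 51 and 145 at adjusted p under 0.01 and 0.1, and 46 by glmTreat against a fold of 1.5. DESeq2 raised 127, 90 of them among the 93, and voom 91, of which 70. The count of lowered genes (8) was 30 by DESeq2, 23 by voom, 16 under a stricter filter, 5 with the compared groups alone, 3 thinned, 17 and 16 against the non-conditioned and both t0 groups, 5 and 28 at adjusted p under 0.01 and 0.1, and 1 by glmTreat. With the compared groups alone, 55 of the 61 raised genes were among the 93, and 3 of the 5 lowered genes were among the 8. A replicate block by title number gave 105 raised and 14 lowered genes, and a replicate block by description number gave 66 and 7. In the non-conditioned lineage thinning gave 75 raised and 13 lowered, while DESeq2 and voom lowered 47 and 61. Against heat, thinning gave 68 raised, and 13, 12 and 14 genes were lowered with library totals, the authors' factors and DESeq2. Some alternatives remove counts or samples, and the causes of these shifts were not tested.

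Leaving out 1 library at a time gave 57 to 102 raised and 5 to 24 lowered genes, 0 to 1 gene that differed between lineages, 84 to 117 raised and 4 to 9 lowered against heat, 128 to 155 raised and 10 to 24 lowered in the non-conditioned lineage, and a difference in share of 1.95 to 2.3 points. The lowered count was 24 without t0 library 1 and 5 without LPS library 3; the single gene appeared without t0 library 1. Without t0 libraries 2 and 3 together the counts were 37 raised and 1 lowered. Fits without non-conditioned or heat libraries, and the counts without both t0 libraries, were chosen after seeing the data. The scaling moved the median log2 fold change of all genes by under 0.1, from -0.034 to 0.025. The median SE of 0.546 between 1 and 10 CPM at t0 bounds the changes that could be called in low genes.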

Other observations

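The largest fitted difference among all genes tested belonged to a gene that passed no test. ENSGALG00000041889.2, chosen after its values were seen, had 0, 5 and 111 counts in t0 libraries 1, 2 and 3 of the conditioned lineage and 0 in all 3 LPS libraries, for a fitted difference of -9.52 on the log2 scale (edgeR adjusted p = 0.559). It had 2972, 752 and 1 counts in the heat libraries of that lineage, and 6288 counts in t0 library 2 of the non-conditioned lineage against 0 in the other two. The level thus ran from 0 to 1244.5 CPM between libraries of the latter group.

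Among the genes that rose most in the non-conditioned lineage, the conditioned lineage gave smaller values. Of its 20 largest rises, 16 were raised in the conditioned lineage, against 1.17% of all genes tested, and 19 were positive, against 53%. The exception, ENSGALG00000039028.1, had a log2 fold change of -3.93 and was not called (edgeR adjusted p = 0.387). The 20 genes had a median log2 fold change of 3.99 against 5.37 where they were chosen. The list was chosen by the values of the non-conditioned lineage, so the difference of these medians is a description with no test. Ranking by fold change favours genes that were low before LPS, some of which passed the filter on low counts only through LPS libraries. The shares of all genes are therefore no matched background for these 20, and their counts are a description too.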
